A study of Mus musculus with 2 samples.

Results

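The tooth patterning transcription factors *Pitx1*, *Msx1*, *Msx2*, *Pax9*, *Barx1*, *Lhx6*, *Lhx8*, *Sp6* and *Tbx1* were followed in the newborn mouse incisor with and without *Sox21*. The set was given by name and covers 9 of the 21244 genes with a probe on the array, read by 12 of its 55679 probes, all of which are described here. RNA from the incisor of wild-type mice and of *Sox21* KO mice, labelled as postnatal day 0 in both groups, was hybridized with 1 dye to Agilent SurePrint G3 mouse arrays, with 1 array per genotype and 2 arrays in all. The KO mice lack *Sox21*, a SoxB2 transcription factor of differentiating ameloblasts, in every cell of the body and not in the enamel epithelium alone. The labels name the wild-type group by no other allele or agent, and they do not give the number of animals behind an array. With 1 array per genotype, no difference below has a replicate check and none could be tested. Each signal is therefore given with the error that the scanner software estimated for it, which at bright spots is nearly a fixed share of the signal. This error does not cover the spread between animals.

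The tooth forms by an exchange of signals between an epithelium of the jaw and the neural crest mesenchyme beneath it, and these factors are the response of each layer to the signals of the other. Epithelial Fgf8 and Bmp4 divide the jaw mesenchyme into fields, in which *Barx1*, *Lhx6* and *Lhx8* follow Fgf8 and *Msx1* and *Msx2* follow Bmp4. *Msx1* and *Pax9* then keep Bmp4 on in the mesenchyme, which carries the tooth from bud to cap, while *Pitx1*, *Sp6* and *Tbx1* act in the dental epithelium from which ameloblasts arise. In the newborn incisor, early patterning is over, and the growing tooth holds differentiating ameloblasts and odontoblasts together with their progenitors.

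The deleted gene was read by 2 probes, both lower on the KO array. Processed signals of *Sox21* were 1362 ± 136 (scanner error) for wild-type and 659.1 ± 66.1 for the KO at the brighter probe, a log2 ratio, KO minus wild-type, of -1.09 ± 0.20. At the dimmer probe they were 285.6 ± 29 and 103.2 ± 11.3, a log2 ratio of -1.51 ± 0.22. Signal at both probes was still well above background on the KO array, and where they lie relative to the deleted part was not given in the sources used here.

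Because a level on an array is read through 1 probe of 60 bases, the probe sequences of the genes with several probes, and of *Sp6*, are shown ahead of their values. They are printed 5′ to 3′ as deposited, as a stretch of 30 bases except for the third *Lhx6* probe, which is whole, with runs of alternating C and A or T and G in capitals where a probe's longest such run reaches 7 bases.
Pax9 probe 1: ccacacctgtatatttattctaaatcaacc
Pax9 probe 2: gtttcgcgagtaggtcaattggtgttggca
Lhx6 probe 1: aACACACACACACACACACACACACACACA
Lhx6 probe 2: tcttatttgtgtaataaataaagttaatgc
Lhx6 probe 3: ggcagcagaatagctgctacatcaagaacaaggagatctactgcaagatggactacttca
Sp6: TGTGTGTatgcgtgtgttgtctgcacctgt
The sequences differ in kind. The brightest *Lhx6* probe ends in an unbroken run of 29 alternating C and A bases, from base 32 to base 60, whereas the longest such run was 5 bases in its neighbour and 3 bases in the third probe. Both *Pax9* probes held runs of at most 5 bases. The *Sp6* probe opens with a run of 7 bases and holds 16 TG pairs in all.

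Values below are processed signals, from which the scanner software had removed the background, and normalized signals, which are processed signals in units of the 75th percentile of the same array. A probe was counted as measured when the software marked it as well above background on both arrays. Levels are compared between arrays for the same probe only, since probes differ in how they bind.

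Of the epithelial factors, *Pitx1* was higher on the KO array, *Sp6* was lower and *Tbx1* differed least. *Pitx1*, a paired-like homeobox factor of the jaw and dental epithelium, was read by probe A_52_P522255 at chr13:55926417-55926476 on the minus strand (mm9 throughout). Its processed signal was 3918 ± 392 for wild-type and 4818 ± 482 for the KO. The normalized signals were 14.6 and 17.5, a log2 ratio of 0.26 ± 0.20 that lay at the 85.5 percentile of the 13796 measured genes. This was the highest ratio among the 8 genes measured on both arrays when each was taken at its brightest probe, and it was 1.26 times its scanner error.

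*Sp6*, also called epiprofin, is a zinc finger factor without which mice form surplus teeth that lack enamel. Its probe, A_55_P2070441 at chr11:96885252-96885311 on the plus strand, gave processed signals of 1798 ± 180 and 1456 ± 146 on the wild-type and KO arrays. Normalized signals were 6.72 and 5.28, so that the KO array carried 0.786 times the wild-type level, with a log2 ratio of -0.35 ± 0.20 at the 8.6 percentile. The difference was 1.70 times its scanner error. The 19 measured probes with at least 16 TG pairs and no run of 20 or more bases, the *Sp6* probe among them, had a median log2 ratio of 0.16, from -0.47 to 0.41, and 5 of them were lower on the KO array. The part of these pairs in the *Sp6* signal was not tested.

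*Tbx1*, a T-box factor needed for the dental epithelium to form ameloblasts, was the flattest of the genes. Its probe, A_55_P2051716 at chr16:18581807-18581866 on the minus strand, gave 3947 ± 395 and 4146 ± 415, or 14.7 and 15.0 after scaling. The log2 ratio of 0.03 ± 0.20 was 0.144 times its scanner error and sat at the 53.1 percentile.

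*Msx2*, a homeobox factor of both layers that acts in the enamel knot and later in ameloblasts, was read by A_55_P2043486 at chr13:53562318-53562377 on the minus strand. Processed signals were 4801 ± 480 for wild-type and 5330 ± 533 for the KO. The log2 ratio was 0.11 ± 0.20, so this gene too lay within its scanner error of no difference.

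Among the mesenchymal factors, *Msx1*, *Pax9* and *Lhx8* were all slightly higher on the KO array, each by less than the scanner error of its brightest probe. *Msx1*, whose loss stops teeth at the bud stage, had processed signals of 1227 ± 123 and 1400 ± 140 at probe A_52_P561671 (chr5:38212305-38212364, minus strand). The normalized level was 4.58 for wild-type and 5.08 for the KO, a log2 ratio of 0.15 ± 0.20. *Lhx8*, a LIM homeobox factor that acts together with *Lhx6* in molar mesenchyme, had signals of 727.4 ± 73.0 and 839.7 ± 84.1 at probe A_51_P298615 (chr3:153969377-153969436, minus strand). Its log2 ratio was 0.17 ± 0.20.

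*Pax9*, the paired box partner of *Msx1* in the dental mesenchyme, was read by 2 probes that gave the same direction and different sizes. Probe 1, A_55_P2117908 at chr12:57811230-57811289 on the plus strand, had processed signals of 468.6 ± 47.1 for wild-type and 552.2 ± 55.4 for the KO, and a log2 ratio of 0.20 ± 0.20. Probe 2, A_55_P1955756, lies 928 bases further along the same strand at chr12:57812158-57812217 and had signals of 44.29 ± 7.42 and 78.74 ± 9.59. There the KO array carried 1.73 times the wild-type level, with a log2 ratio of 0.79 ± 0.30 at the 98.5 percentile and 2.64 times its scanner error.
The ratios of the *Pax9* probes differed by 0.59 on the log2 scale, against a scanner error of 0.36 for that difference. Dim probes lay apart more often than bright ones, since 13% of the 6933 measured probes with a mean signal under 100 were at least 1.5-fold apart between the arrays, and 3.22% of the 7955 probes with a mean signal of 1000 or more. The median absolute log2 ratio was 0.24 in the dim class and 0.11 in the bright one.

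*Barx1*, a homeobox factor known for marking the molar field of the jaw mesenchyme, missed the mark for signal well above background on each array. Its only probe, A_55_P2030040 at chr13:48761442-48761501 on the plus strand, had processed signals of 13.33 ± 5.71 for wild-type and 23.55 ± 5.72 for the KO. The weaker of the software's marks, a signal significantly above background, was set on both arrays. Of 308 negative control spots, 6 reached this signal for wild-type and 0 for the KO. The signals differed by 10.2, with a scanner error of 8.08, and no fold is given.

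**Figure D1:**
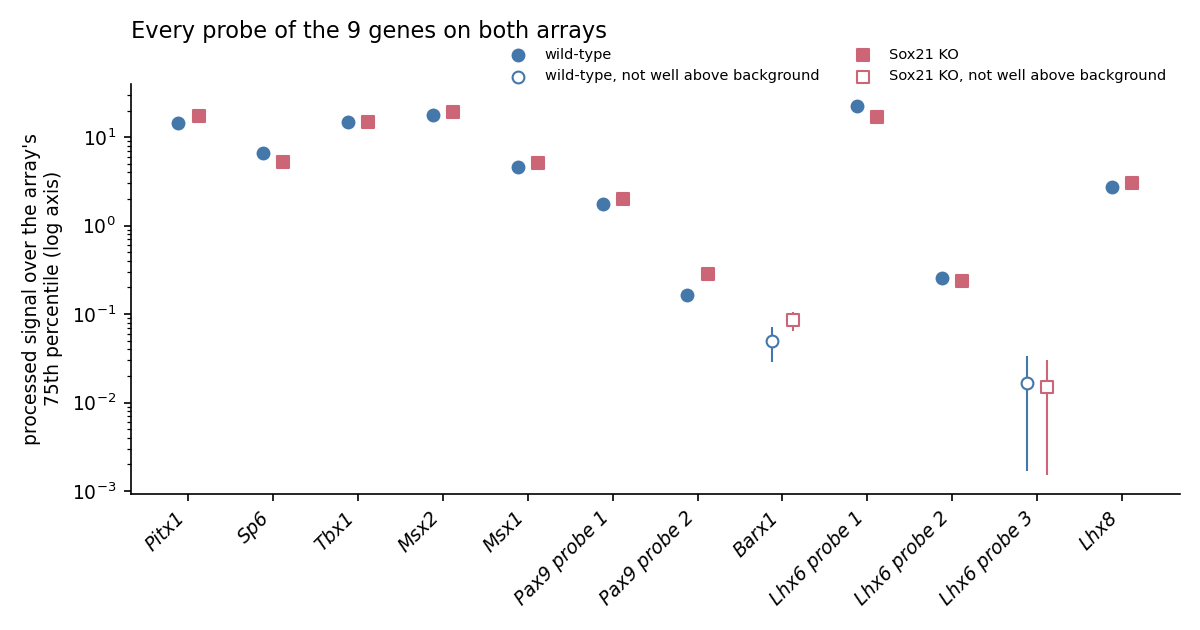
Normalized signal (log axis) of every probe of the 9 genes on the wild-type array (circles) and the Sox21 KO array (squares), with the scanner software's error as vertical lines, most of them shorter than the symbols; lines that would reach 0 or below are shortened. Open symbols mark signals not well above background, as for Barx1 (0.0498 and 0.0855) and the third Lhx6 probe (0.0167 and 0.0151).

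*Lhx6*, the second LIM homeobox factor of the jaw mesenchyme, was the only mesenchymal gene with a lower level on the KO array, and its probes gave 3 readings that differ in brightness. Probe 1, A_55_P2005903 at chr2:35937644-35937703 on the minus strand, had processed signals of 5987 ± 599 for wild-type and 4685 ± 469 for the KO. Normalized signals were 22.4 and 17.0, so that the KO array carried 0.760 times the wild-type level, with a log2 ratio of -0.40 ± 0.20 at the 6.9 percentile. Probe 2, A_55_P2094158 at chr2:35937470-35937529, starts 174 bases away and had signals of 68.91 ± 9.14 and 64.42 ± 8.40. Its log2 ratio was -0.14 ± 0.27, within its scanner error of no difference. The ratios of these probes differed by 0.26 on the log2 scale, against a scanner error of 0.34 for that difference.
Probe 3, A_55_P2094149 at chr2:35958379-35958438, stands for another transcript entry and lies 20735 bases from probe 1. It read 4.478 ± 4.49 for wild-type and 4.173 ± 4.19 for the KO, and 276 and 259 of the 308 negative control spots reached these signals, so it gave no ratio.

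The brightest *Lhx6* probe shares its run with other probes, and those probes shared its direction. An alternating run of C and A, or of T and G, of at least 20 bases was present in 76 of 55681 probes, or 0.136%. All 76 were well above background on both arrays, as were 48.5% (wild-type) and 49.2% (KO) of all probes. Of the 24 probes with a CA run, the *Lhx6* probe among them, 24 were lower on the KO array, with log2 ratios from -0.76 to -0.35 and a median of -0.47. The ratio of *Lhx6* probe 1 falls inside that range, and 17 of the 24 probes had a lower one. The 52 probes with a TG run had a median log2 ratio of 0.21, from -0.04 to 0.43, and 1 of them was lower on the KO array. The part of the run in the *Lhx6* signal was not tested, and the only measured *Lhx6* value free of it is that of probe 2.

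**Figure D2:**
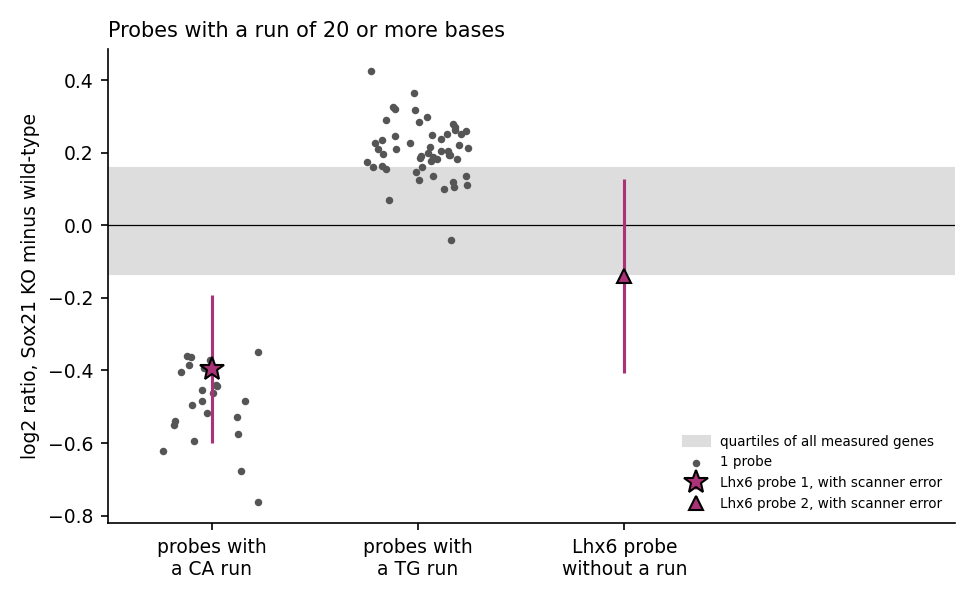
Log2 ratio, Sox21 KO minus wild-type, of each probe with an alternating run of at least 20 bases, split into CA runs and TG runs, with Lhx6 probe 1 as a star among the CA runs and Lhx6 probe 2, which has no such run, as a triangle; vertical lines are the scanner software's error and the band spans the quartiles of all measured genes (-0.13 to 0.16). All 24 CA-run probes lie between -0.76 and -0.35, and Lhx6 probe 2 lies at -0.14.

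Taken at their brightest probe, 8 of the 9 genes were measured on both arrays. Of these, 6 were higher on the KO array, where 52.4% of all measured genes were higher, and 2, *Sp6* and *Lhx6*, were lower, where 47.6% of all measured genes were. None of the 8 (0 genes) was at least 1.5-fold apart, against 6.18% of measured genes, and 0 were at least 2-fold apart, against 1.41% (0.739% higher and 0.667% lower). The KO array carried from 0.760 times the wild-type level, at the *Lhx6* probe with the CA run, to 1.19 times, at *Pitx1*. The median log2 ratio was 0.13, from -0.40 to 0.26, beside a median of 0.01 and quartiles of -0.13 and 0.16 over all measured genes. With 8 genes and 1 array per genotype, these counts are a description.

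By layer, the epithelial genes *Pitx1*, *Sp6* and *Tbx1* had a median log2 ratio of 0.03, from -0.35 to 0.26, and the 4 measured mesenchymal genes a median of 0.16, from -0.40 to 0.20. The ranges overlap. Ordered by ratio, the genes ran from *Pitx1* through *Pax9*, *Lhx8*, *Msx1*, *Msx2*, *Tbx1* and *Sp6* to *Lhx6*. Of the 7 neighbouring pairs in this order, 1 was apart by more than its scanner error, namely *Tbx1* and *Sp6*, which differed by 0.38 with an error of 0.29. *Lhx6* taken at its probe 2 would stand between *Tbx1* and *Sp6*.

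Set against the scanner error, 5 of the 8 genes lay within 1 error of no difference and 8 within 2 errors, and of the 10 measured probes 9 lay within 2 errors, with *Pax9* probe 2 outside. Over all measured probes, 64.6% lay within 1 error and 88.9% within 2. Between repeated spots of the same probe, the log2 ratio varied less than this error, with a median SD of 0.086 over 298 probes. The errors of the 8 genes, 0.204 to 0.205 on the log2 scale, are nearly the same for every gene. Multiples of this error therefore follow the size of the ratio. The errors are wider than the repeat-spot spread on the same array, and neither measure covers differences between litters, dissections or labelling reactions.

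**Figure D3:**
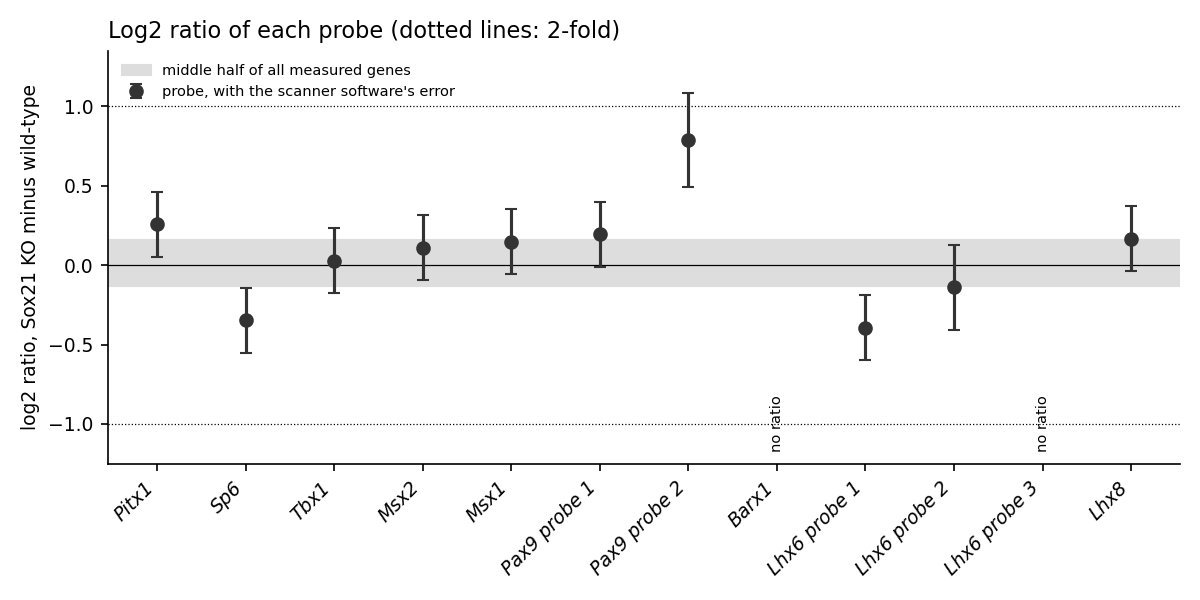
Log2 ratio, Sox21 KO minus wild-type, of the 10 measured probes of the 9 genes, with the scanner software's error as vertical lines, the quartiles of all measured genes as a band and dotted lines at 2-fold. Only Pax9 probe 2 (0.79) lies more than 2 errors from 0; Sp6 (-0.35) and Lhx6 probe 1 (-0.40) lie below the band, and Barx1 and Lhx6 probe 3 have no ratio.

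**Figure D4:**
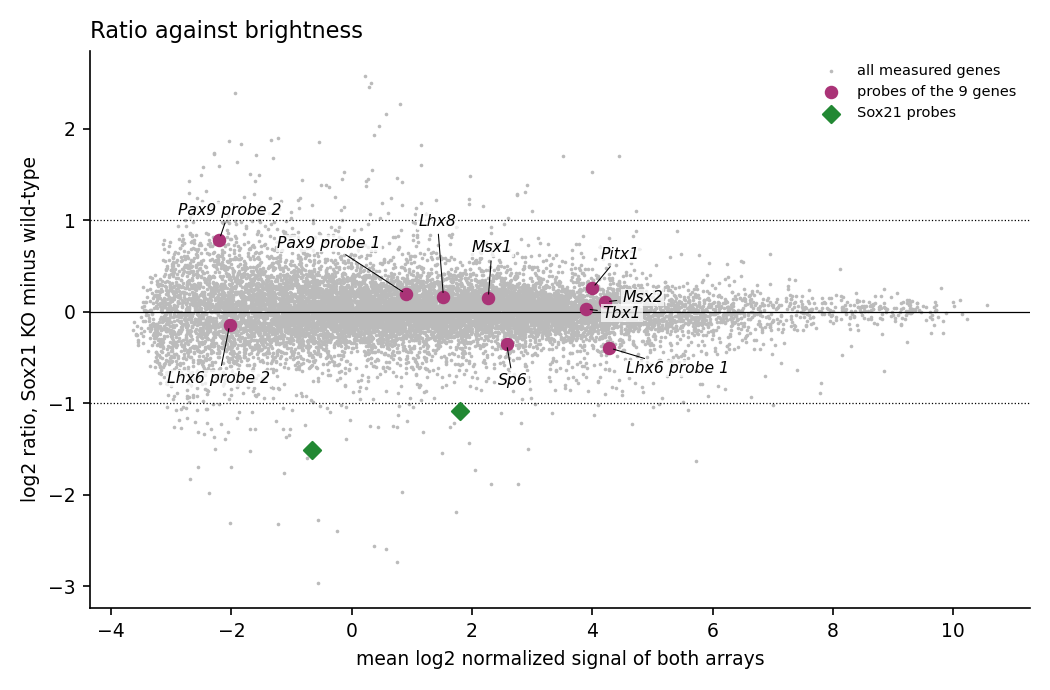
Log2 ratio, Sox21 KO minus wild-type, against the mean log2 normalized signal of both arrays, for the 13796 measured genes (grey), the 10 measured probes of the 9 genes (purple circles) and the Sox21 probes (green diamonds), with dotted lines at 2-fold. The grey cloud widens toward dim signals, where Pax9 probe 2 (0.79) and Lhx6 probe 2 (-0.14) lie, while the Sox21 probes lie at -1.09 and -1.51.

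The other genes of the same programme were followed in 3 lists. Of 35 further transcription factors of tooth development, 31 were measured, and 21 were higher and 10 lower on the KO array, with a median log2 ratio of 0.07, from -0.38 to 0.65. The share of genes at least 1.5-fold higher was 3.20% over the array, and 1 of the 31 reached it. This was *Osr2*, a zinc finger factor that restricts tooth formation to a single row and opposes the *Msx1* and Bmp4 loop, with signals of 150.1 and 243.2 and a log2 ratio of 0.65. None of these factors (0 of 31) was at least 1.5-fold lower, against 2.99% of measured genes.

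Signals that act upstream of the 9 factors ran from a log2 ratio of -0.86 to 1.02. Of 18 such genes, 15 were measured, 7 higher and 8 lower, with a median log2 ratio of -0.09. This median was 0.007 with each array scaled to its median. Of the 15 genes, 1 was at least 1.5-fold higher and 2 at least 1.5-fold lower, where the shares over the array were 3.20% and 2.99%. *Bmp4*, the inducer and target of *Msx1*, was 7520 for wild-type and 4345 for the KO, a log2 ratio of -0.83. *Bmp7*, a related ligand, was 5489 and 3108, a log2 ratio of -0.86. *Msx1* at 0.15 and *Msx2* at 0.11, which follow Bmp4 in early patterning, stood within their scanner error of no difference. A link between these values and those of the ligands was not tested. *Wnt7b*, which helps to place the border of the dental epithelium, was 93.13 and 194.5, a log2 ratio of 1.02. *Fgf8*, the early inducer of *Barx1*, *Lhx6* and *Lhx8*, passed the background mark for wild-type alone. Its signals were 27.62 and 15.88, and no fold is given. *Fgf20* and *Edar* were not well above background on either array.

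Of 16 genes linked downstream of the 9 factors, 13 were measured, 7 higher and 6 lower, with a median log2 ratio of 0.08. Under quantile normalization this median was 0.000, so its direction is not settled. The 3 that were at least 1.5-fold apart were all lower on the KO array and all belong to enamel formation, where 2.99% of all measured genes were at least 1.5-fold lower and 0.667% at least 2-fold lower. They were *Amtn*, which codes for amelotin, with signals of 3495 and 971.7 and a log2 ratio of -1.89, the enamel protease *Klk4* at -1.05 and the matrix gene *Enam* at -0.65. The study had already reported *Amtn* and *Klk4* as lower in its microarray data of these samples, and the list was chosen with earlier results known. The count beside the share over the array is therefore a description. *Amelx*, the main enamel matrix gene, stood at 0.08. The epithelial factors *Pitx1*, *Sp6* and *Tbx1* ranged from -0.35 to 0.26 on the same arrays. A link between their values and those of the enamel genes was not tested.

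**Figure D5:**
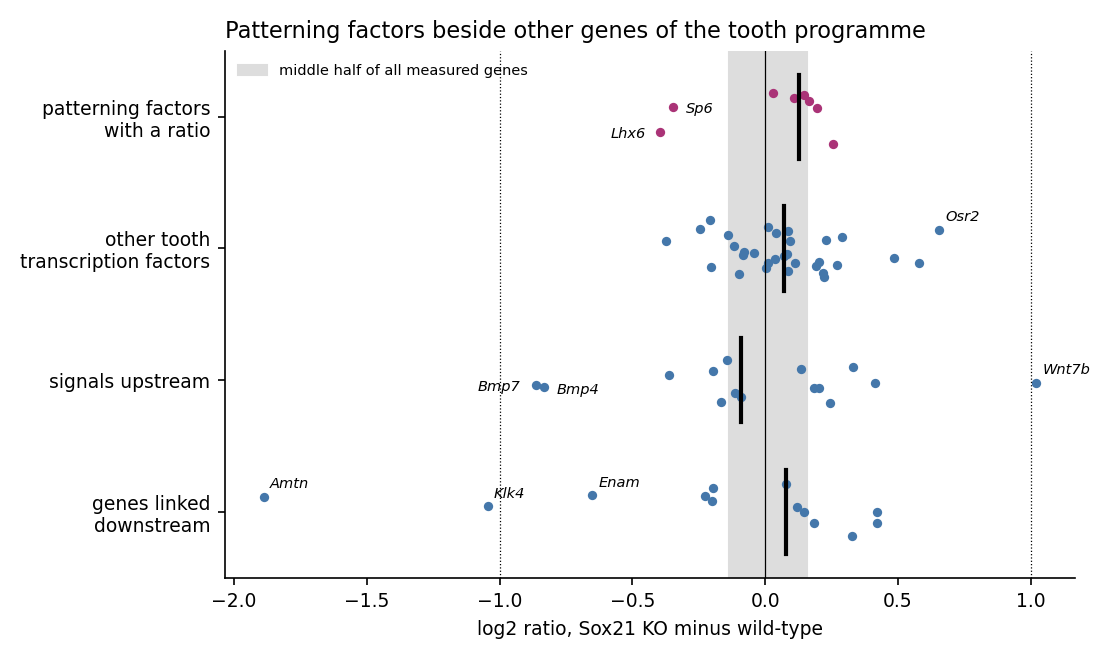
Log2 ratio, Sox21 KO minus wild-type, of each measured gene in 4 sets: the patterning factors, other tooth transcription factors, signals upstream and genes linked downstream. Points are genes with random vertical spread, black bars are medians (0.13, 0.07, -0.09 and 0.08), the band spans the quartiles of all measured genes and dotted lines mark 2-fold.

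The labels name the tissue as incisor, while the design text of the series speaks of both ameloblasts of the incisor and tooth germs taken whole. The study describes tooth germs dissected from incisors, with epithelium and mesenchyme, but at postnatal day 1. The makeup of the sample is thus not fully settled by these descriptions. Markers of several cell types were present on both arrays, and in such RNA fewer cells of a type and less RNA per cell cannot be told apart. Markers of the incisor were present, with 10 of 10 markers of dental and oral epithelium, 8 of 8 of ameloblasts and 6 of 6 of odontoblasts measured on both arrays. The summed normalized signal on the KO array was 1.03 times that on the wild-type array for epithelium (1195 against 1160), 0.903 times for ameloblasts (2903 against 3213) and 1.06 times for odontoblasts (517 against 488). These sums rest on their brightest probes, *Amelx* and *Ambn* for ameloblasts and *Col1a1* and *Dspp* for odontoblasts. By gene, 5 of 10 epithelial markers were higher on the KO array, with a median log2 ratio of 0.03, and *Lamb3*, a laminin chain of the basement membrane, was lower at -1.07. Of the ameloblast markers 6 of 8 were lower, with a median of -0.56 and a range from *Amtn* at -1.89 to *Odam* at 0.63. Of the odontoblast markers 4 of 6 were higher, with a median of 0.08, and *Dmp1* at 0.93 and *Phex* at 0.79 were at least 1.5-fold higher. Mesenchymal markers, which accompany *Msx1*, *Pax9*, *Lhx6* and *Lhx8*, summed to 1284 for wild-type and 1451 for the KO, a ratio of 1.13, and 8 of 10 were higher, with a median log2 ratio of 0.23. The median was thus larger than the log2 ratios of *Msx1* at 0.15, *Lhx8* at 0.17 and *Pax9* probe 1 at 0.20, and its part in these values was not tested.

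Markers of neighbouring tissues differed in both directions. Those of stratified skin and mucosa summed to 17.3 and 31.2, a ratio of 1.81, with 5 of 8 genes measured and all 5 higher, from *Krt10* at a log2 ratio of 0.35 to *Krt1* at 1.45, with *Krt4* and *Flg* well above background for the KO alone. Signals were 13.43 and 171.3 for *Krt4* and 23.71 and 126.4 for *Flg*. No fold is given for them, since the wild-type signals missed the mark, and *Ivl* was not measured. Probes differed in size here, with log2 ratios of 0.35 and 1.84 for *Krt10* and of 0.56 and 1.94 for *Krt13*, the brighter probe first. Cartilage markers summed to 11.9 and 19.5, a ratio of 1.64, from *Col9a1* at -0.03 to *Comp* at 0.89, without *Matn1* and *Cnmd*. Bone markers had a ratio of 1.31, from 160 to 210, between *Alpl* at 0.01 and *Spp1* at 0.82, without *Sost*. Skeletal muscle markers summed to 65.9 and 47.9, a ratio of 0.727, with 6 of 7 measured genes lower, from *Ckm* at -0.71 to *Myh3* at 0.64, and *Myod1* not measured. The endothelial sum had a ratio of 1.02 and rests on *Kdr*, while by gene 4 of 6 markers were higher, with a median log2 ratio of 0.27, and *Pecam1* at 0.62 and *Tek* at 0.64 were at least 1.5-fold higher. The sum for blood and macrophages had a ratio of 0.866 and rests mainly on *Hba-a1* at -0.36, while the macrophage genes *Csf1r* at 0.33 and *Cd68* at 0.50 were higher and *Aif1* at -0.43 was lower. The part of these tissues in the values of the 9 genes was not tested.

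Promoter sequence was looked up because *Sox21* binds DNA through an HMG box, whose family prefers the letters AACAAT, or ATTGTT on the other strand. RefSeq promoters (GRCm38.p6, from 250 bases before to 50 bases after a start) were given for 7 of the 9 genes, with 10 promoters in all, and none was given for *Pitx1* and *Sp6*. The motif was found in 1 of the 10, a promoter of *Lhx6* at chr2:36104011-36104310 on the minus strand, 12 bases before the start. Over all 32851 promoters of the same length, 3521, or 10.72%, held it. The stretch around the match, at chr2:36104055-36104084, is printed with the motif in capitals.
Lhx6 promoter: aagttaggactcATTGTTcagcgccggttt
A match of 6 letters is a description of the sequence and not a binding site, and the letters may lie outside these windows in the other genes.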

How the data were processed

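Incisor RNA from 1 wild-type and 1 *Sox21* KO sample was measured. The deposited labels give postnatal day 0, whereas the methods of the study give day 1 for tooth germs. The authors deposited the output of Agilent Feature Extraction 10.7.3.1, with a background-subtracted processed signal intensity and its error for each of 62976 spots, the raw mean and local background intensity, and marks for signal above background. They also deposited a table of ratios, each processed signal over 1 number per array (267.8 and 275.6), which lies at the 75th percentile of all spots. The deposited p-value of each feature against background was read only through the software's marks.

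Here, 267 spots marked as outliers on either array were left out, each processed signal was divided by the 75th percentile of its array (267.7 and 275.6), and repeated spots were averaged, which left 55679 probes (55681 with a sequence before outliers). Errors of log2 ratios were propagated from the scanner errors of both arrays. Of the spots other than controls, 49.7% and 50.4% were well above background, and 0 were saturated. Median local background was 27 for wild-type and 23 for the KO. The 8 spike-in probes measured on both arrays had a median log2 ratio of -0.05. Gene symbols came from RefSeq (GRCm38.p6), by accession for 26298 probes, by symbol for 2044 and by an older symbol for 355, and 26982 kept the name in the file. Probe coordinates are those of the files (mm9), and exons and UTRs were not assigned to them.

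The brightest probe well above background on both arrays gave a gene's value. No test was run, since there is 1 array per genotype. Members and lists were chosen with earlier results of these data known. The text names every probe of the members, genes of the 3 programme lists at least 1.5-fold apart, the extremes of marker lists whose sum moved by over 1.2 times, and *Sox21*. The result of 1 further marker list, to which this rule would also apply, is not reported here. *Amelx*, *Ambn*, *Col1a1*, *Dspp*, *Odam*, *Dmp1*, *Phex*, *Lamb3*, *Krt4*, *Krt13*, *Flg*, *Ivl*, *Kdr*, *Pecam1*, *Tek*, *Hba-a1*, *Csf1r*, *Cd68*, *Aif1*, *Fgf8*, *Fgf20* and *Edar* were named after their values were seen. *Trp63*, *Prrx1* and *Sp7* stand in both the transcription factor list and a marker list, and the enamel genes in both the downstream list and the ameloblast list. Alternatives changed the scaling, background correction, probe choice, filter and threshold. Steps were tested on simulated data. Python 3.11.15, numpy 2.4.6, pandas 2.3.3, matplotlib 3.10.9, R 4.3.3 and limma 3.58.1 were used.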

Additional observations from a re-analysis of the deposited data

How the results depend on the processing

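None of the 8 measured genes changed direction under the alternatives run, and 0 were at least 2-fold apart under any of them. The 1.5-fold threshold was counted under the main settings alone, also with 0 genes. *Pitx1* ranged from 0.23 to 0.35 on the log2 scale, *Sp6* from -0.38 to -0.25, *Tbx1* from 0.00 to 0.13, *Msx2* from 0.08 to 0.21, *Msx1* from 0.12 to 0.24 and *Lhx8* from 0.14 to 0.26. *Pax9* was 0.49 as the mean over its probes. *Lhx6* was -0.14 with probes holding an alternating run of 20 or more bases left out, an alternative chosen after seeing the data. With each array scaled to its median, which moves the median of all genes by 0.10, the median was 0.23 for the patterning factors, 0.17 for the other transcription factors, 0.007 for the upstream signals, where the sign turned, and 0.17 for the downstream genes. Relative to the median of all genes these were 0.12, 0.06, -0.10 and 0.07. Under quantile normalization the downstream median was 0.000, or -0.01 relative to all genes, so its direction is not settled. Under the weaker mark for signal above background, 9 genes counted as measured, and with no filter on dim probes 7 were higher. *Barx1* is the gene that enters, with signals that fall short of the stricter mark and differ by 10.2, with a scanner error of 8.08. No paired analysis was possible because each genotype has 1 array. Signal over background limits *Barx1*, the third *Lhx6* probe and the dim probes of *Pax9* and *Lhx6*.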
